A study of Mus musculus with 12 samples.

Results

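The effect of MPS1 inhibition on tumours that lack MAVS in the injected cells was read from 6 of the 12 libraries of the series, 3 from control tumours and 3 from inhibitor-treated tumours, chosen by their genotype and treatment labels. All tumours grew under the flank skin of male 129-Elite mice of the substrain 129S2/SvPasCrl, 8 weeks of age, from the mouse lung cancer line 393P, which carried the MAVS knockout here. The treated mice received 5 mg/kg of the MPS1 inhibitor BAY-1217389, 2 times a day for 2 days, and the tumours were taken on the next day. The control group is labelled only as control and, in the sample titles, as Veh. The titles of the 6 knockout samples also carry Luc, which the labels do not explain, and those of the other 6 carry MAVS. The other 6 libraries came from tumours of 393P cells with reconstituted MAVS, 3 per treatment. The knockout belongs to the injected cells, the host mice are not labelled as edited, and no source used here says whether the knockout population was 1 clone or a pool. The question of the series was which expression changes after a pulse of MPS1 inhibition depend on MAVS, and the knockout tumours show what the drug does to RNA levels when that adaptor is missing from the cancer cells.

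MPS1, encoded by Ttk, is the kinase that starts the spindle assembly checkpoint, which holds a dividing cell in mitosis until every chromosome is attached to the spindle. Cells that lose its activity leave mitosis early and can missegregate chromosomes into micronuclei. Nucleic acids that reach the cytosol can then be read by RNA sensors such as RIG-I and MDA5, which signal through MAVS on mitochondria, or by the DNA sensor cGAS, which signals through STING, and either route can switch on type I interferon and its target genes.

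The edited gene itself was read at similar levels in both knockout groups. Mavs (gene ID 228607, chr2:131234063-131248025 of GRCm38.p6) had 40.5, 42.5 and 45.7 CPM (counts set to a common depth) in the control libraries. Under the inhibitor it had 43.5, 39.4 and 40.99 CPM, a log2 difference of -0.06 ± 0.13 (inhibitor minus control, SE). The 6 libraries of reconstituted tumours had 85.1, 68.9 and 59.1 CPM in controls and 50.1, 53.8 and 62.8 CPM under the inhibitor, all above the 6 knockout libraries. Counts per gene cannot separate an edited transcript from Mavs RNA of host cells, so these values rank the genotypes but do not show the deletion.

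The 6 knockout libraries had totals of 52983715 to 62931443 counts, so that 3 counts equal 0.0461 to 0.0571 CPM. Replicates spread about as widely as the treatments did: the SD over genes of the log2 difference between libraries was 0.590 to 0.726 within a group and 0.583 to 0.757 between a control and an inhibitor library. Control replicate 2 lay farthest out on the first principal component of the knockout libraries (31.9% of the variance). The tumours carried the epithelial markers Epcam, Krt8 and Cdh1 in every knockout library, whereas the lung lineage genes Nkx2-1 and Sftpc had 0 counts in all 12 libraries and Sftpb and Scgb1a1 at most 2 counts in a knockout library. Whether each replicate was its own animal is not stated in the labels, so a p-value here sets the treatment against sample spread that may be technical. In pieces of whole tumour, fewer cells of a type and less RNA per cell cannot be told apart.

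No gene passed the test for a response to the inhibitor in MAVS-knockout tumours, and most well-expressed genes were bounded close to no change. Of 17885 genes tested, 0 were called higher (0%) and 0 lower (0%) at an adjusted p below 0.05 with edgeR's quasi-likelihood test, every gene having an adjusted p of 1. At an unadjusted p under 0.05 there were 305 genes (1.71%), 117 higher and 188 lower. On the same counts limma-voom called 1 gene and DESeq2 called 3, all described with the leading genes. The count stayed at 0 in each of the 12 fits that left out 1 library.

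A p that misses the threshold does not show that a gene was flat, so each gene was also judged by the 95% interval of its log2 difference. A gene is called held here when the whole interval lies within a 1.5-fold change in either direction. Of the 17885 genes, 10003 (55.9%) were held within 1.5-fold and 13133 (73.4%) within 2-fold. The share held depended on expression: 0.102% of 3929 genes with a mean under 1 CPM, 32.0% of 3832 genes from 1 to 10 CPM, 86.1% of 7877 genes from 10 to 100 CPM and 88.3% of 2247 genes at 100 CPM or more. The median log2 difference over all genes was -0.0043, with 48.9% of genes positive, and the 5th and 95th percentiles were -0.55 and 0.45. The median margin of an interval, that is, the distance from the log2 difference to either end, was 0.38. The 3 inhibitor libraries lay above the 3 control libraries for 4.47% of genes and below them for 4.25%. Intervals that lay wholly beyond a 1.5-fold change numbered 13 upward and 10 downward.

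**Figure D1:**
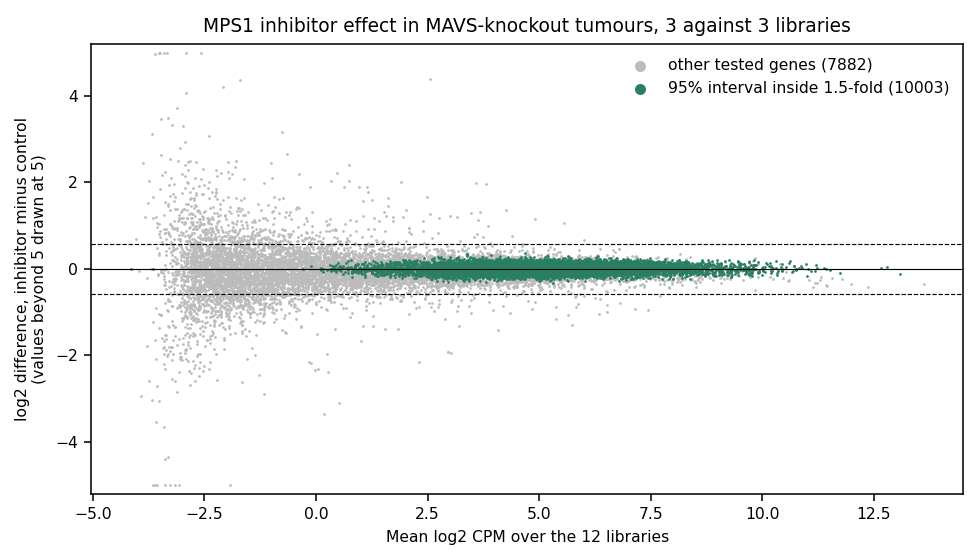
Log2 difference between inhibitor and control tumours with MAVS knockout (vertical axis) against mean log2 CPM over the 12 libraries (horizontal axis), 1 point per tested gene, with dashed lines at a 1.5-fold change. The 10003 held genes (green) form a narrow band at moderate and high expression, and the wide scatter lies at low expression.

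The drug's target and most genes of the spindle assembly checkpoint were bounded near their control level. Ttk (gene ID 22137, chr9:83834651-83872390 of GRCm38.p6) had 18.4, 15.3 and 16.3 CPM in control and 20.1, 18.1 and 17.5 CPM in inhibitor libraries, a log2 difference of 0.16 ± 0.13 (95% interval -0.13 to 0.44), and was held. Of the 22 checkpoint genes 19 were held within 1.5-fold (55.9% over all genes and 86.1% of those from 10 to 100 CPM). Of these 22, 0 were called, and the median log2 difference was 0.15. Mad2l1, whose protein is part of the inhibitor of the anaphase-promoting complex, had 49.6, 41.7 and 45.5 CPM against 49.5, 51.3 and 49.1 CPM (0.13 ± 0.09, held). Bub3, a kinetochore adaptor of the checkpoint, was bounded at -0.20 to 0.25, and Zwint, which helps recruit checkpoint proteins to kinetochores, at -0.11 to 0.22.

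The same list leaned slightly upward, by less than the test could call. Bub1b, encoding BubR1, had 49.9, 49.8 and 55.4 CPM in controls. Its inhibitor libraries had 72.1, 60.7 and 55.8 CPM, all above the controls although the lowest exceeded the highest control only narrowly (0.28 ± 0.14). Spdl1, which encodes the dynein adaptor Spindly of kinetochores, had 13.2, 11.9 and 13.1 CPM against 17.9, 14.6 and 15.4 CPM (0.33 ± 0.10) with no overlap. Incenp, the scaffold of the chromosomal passenger complex, had 65.9, 69.7 and 66.8 CPM against 87.1, 80.5 and 79.5 CPM (0.29 ± 0.10), again without overlap. In all, 20 of the 22 log2 differences were positive, against 48.9% over all genes, and 3 of 22 genes had inhibitor libraries above all controls, against 4.47%.

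Genes of mitosis and the G2/M transition had small positive differences throughout. Of 36 genes, 35 had positive log2 differences with a median of 0.19, 11 had non-overlapping groups with the inhibitor higher (4.47% over all genes), 6 had an unadjusted p under 0.05 (1.71% over all genes), and 0 were called. The values ran from -0.01 to 0.35, so all 36 lay well within a 1.5-fold change, and for 28 of them the interval did too. Plk1, a kinase of mitotic entry and exit, had 44.4, 37.4 and 41.5 CPM in control and 52.2, 47.6 and 46.4 CPM in inhibitor libraries (0.25 ± 0.11). Kif2c, the centromeric microtubule depolymerase, had 22.4, 23.1 and 21.9 CPM against 29.5, 27.5 and 24.2 CPM (0.27 ± 0.10). The groups did not overlap for either gene. Kif20a, a kinesin of cytokinesis, had 53.2, 46.1 and 51.9 CPM against 71.7, 60.5 and 57.2 CPM (0.33 ± 0.14), and here inhibitor replicate 1 stood highest. Ccnb1, encoding cyclin B1, had a difference of 0.16 ± 0.13 with overlapping groups. Top2a, the topoisomerase that untangles sister chromatids, had 0.20 ± 0.12 and was held.

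The proliferation marker Mki67 is shown with its promoter because it belongs to this group and holds letters known from promoters of such genes. The cell cycle genes homology region, CHR, is an element with the letters TTTGAA that is known from promoters of G2/M genes. The 250 bases before the start of Mki67 (RefSeq, GRCm38.p6, chr7:135716380-135716629, minus strand, printed 5′ to 3′) hold it at positions -116 and -98 from the start, in capitals.
Mki67: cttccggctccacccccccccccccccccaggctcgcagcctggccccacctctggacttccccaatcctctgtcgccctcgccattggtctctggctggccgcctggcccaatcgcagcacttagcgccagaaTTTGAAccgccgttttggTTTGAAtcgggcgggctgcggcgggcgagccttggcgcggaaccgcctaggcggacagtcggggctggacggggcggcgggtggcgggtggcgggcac
Searched on both strands, these letters lie in 13 of 31 promoters found for 29 genes of the list (41.9%) and in 5252 of all 32851 promoters of the same length (15.99%). A match is a description of the letters only. The start used for Mki67 is not the outer end of the annotated gene (chr7:135689784-135716450), so part of the printed stretch lies inside that gene. Mki67 had 204, 200.01 and 205 CPM in controls and 279, 239.99 and 209.6 CPM under the inhibitor, a log2 difference of 0.26 ± 0.16 (95% interval -0.10 to 0.62). The control libraries lay close together and the inhibitor libraries were spread above them.

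S phase and repair genes showed the same small lean. Among 34 genes of DNA replication 30 were positive with a median of 0.12, 30 were held and 4 had the inhibitor libraries above all controls (4.47% over all genes). Rrm1, the large subunit of ribonucleotide reductase, had 144, 121 and 131 CPM against 159.5, 155 and 149 CPM (0.23 ± 0.09). Ccne2, encoding cyclin E2, had 17.7, 11.6 and 13.9 CPM against 22.1, 19.9 and 15.9 CPM (0.42 ± 0.19) with overlap, and Pcna, the replication clamp, had 0.07 ± 0.12 and was held. Of 26 DNA damage and repair genes 25 were positive with a median of 0.14 and 21 were held. The damage kinase gene Atm had 39.9, 39.9 and 44.9 CPM against 56.6, 48.1 and 45.5 CPM (0.27 ± 0.16), without overlap. Prkdc, the catalytic subunit of DNA-PK, had 0.31 ± 0.17 with overlap. The histone gene H2afx had -0.01 ± 0.17. Nucleolar genes and other Myc targets were positive in 22 of 24 members (median 0.13) and held in 23. Nolc1, a nucleolar chaperone, had 0.21 ± 0.11, and nucleolin (Ncl) had 0.14 ± 0.10.

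The libraries were not equal in these lists. The mean of the mitosis list, set against the mean of the controls, was 0.08, -0.09 and 0.0032 log2 units in controls 1 to 3 and 0.31, 0.19 and 0.06 in inhibitor libraries 1 to 3. Inhibitor replicate 3 thus lay between control replicates 3 and 1. The mean of the replication list was 0.17, -0.11 and -0.06 in controls and 0.17, 0.14 and 0.08 in inhibitor libraries, so control replicate 1 lay level with the highest inhibitor library and above the other 2. Leaving out each knockout library in turn gave medians of 0.14 to 0.26 for this list, 0.08 to 0.22 for the checkpoint list, 0.06 to 0.20 for replication and 0.10 to 0.20 for repair. Genes of these lists vary together between libraries, so their counts are not independent observations.

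**Figure D2:**
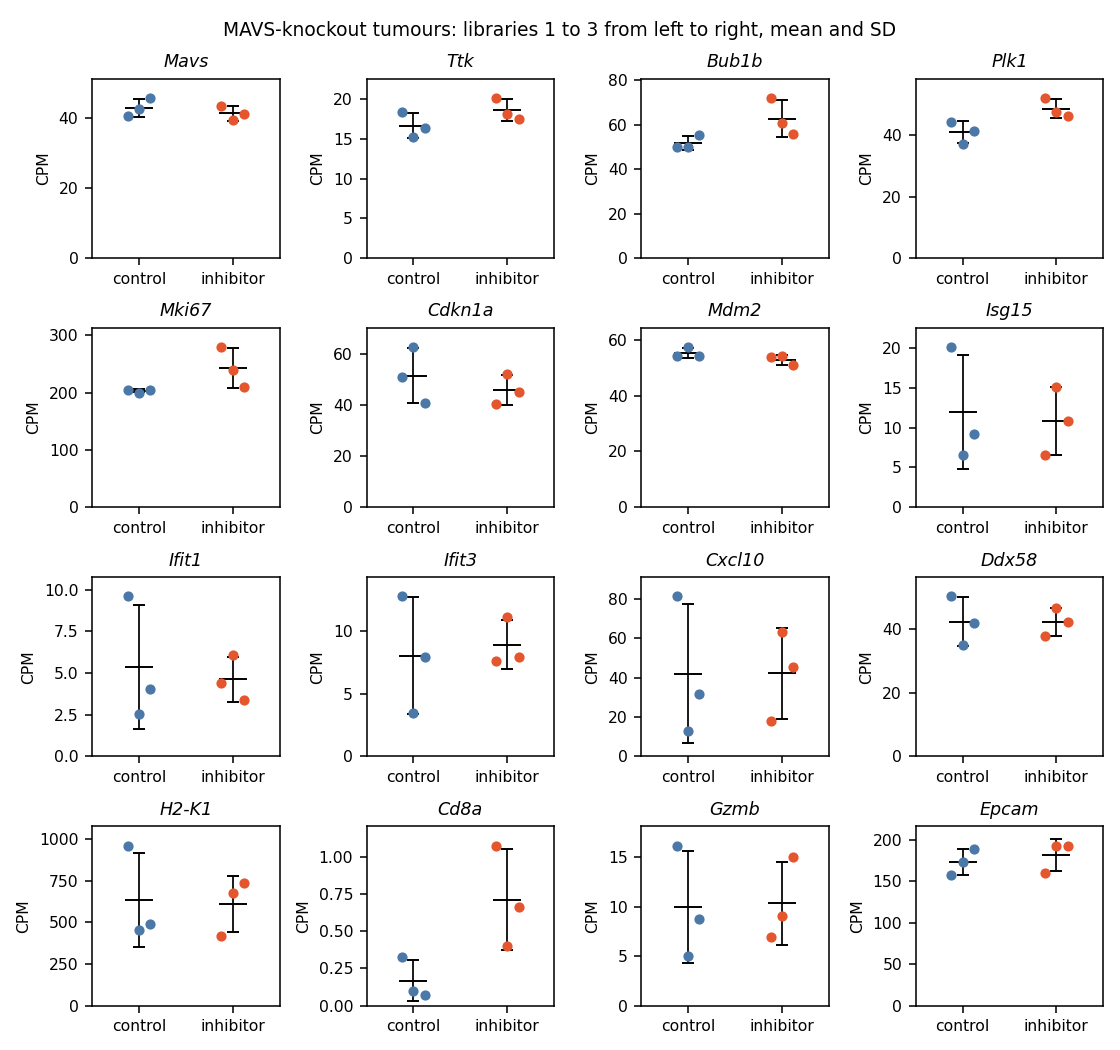
CPM of 16 genes in the 6 MAVS-knockout libraries, with libraries 1 to 3 of each group from left to right and the mean ± SD in black, each panel starting at 0. Mavs, Ttk, Mdm2, Ddx58 and Epcam stayed near their control level, Bub1b, Plk1 and Mki67 lay above all controls, and the interferon-stimulated genes overlapped with wide spread.

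No p53 target passed the test, and most were held. Of 25 targets of p53, the transcription factor that arrests or kills cells after damage or a failed mitosis, 21 were held within 1.5-fold. The share held was 55.9% over all genes and 86.1% for those from 10 to 100 CPM. Of the targets 10 were positive, with a median of -0.05. Cdkn1a, encoding the cell cycle inhibitor p21, had 51.1, 62.6 and 40.8 CPM in control and 40.3, 51.98 and 45.1 CPM in inhibitor libraries. Its log2 difference was -0.17 ± 0.16 (95% interval -0.51 to 0.17), with an upper end below a 1.5-fold rise. Mdm2, the ubiquitin ligase that turns over p53, had 54.2, 57.4 and 54.4 CPM against 53.8, 54.2 and 50.9 CPM (-0.06 ± 0.08, -0.23 to 0.10). Its inhibitor libraries lay just below all controls. Bbc3, encoding the killer protein PUMA, had -0.18 ± 0.14, and Ccng1 had 0.07 ± 0.09, both held.

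Apoptosis genes were mostly held as well. Of 22 genes 19 were held (55.9% over all genes and 86.1% of those from 10 to 100 CPM), 8 were positive and the median was -0.04. The survival gene Mcl1 had 407, 445 and 408 CPM against 394, 459 and 436 CPM (0.03 ± 0.08). Bcl2l1, encoding Bcl-xL, had -0.05 ± 0.13. Both were held. Factors secreted by senescent cells had a median of -0.15, with 11 of 34 positive, 11 held and 3 with the inhibitor libraries below all controls (4.25% over all genes). Csf3, a granulocyte growth factor, had 11.2, 14.1 and 12.01 CPM in control and 10.8, 8.56 and 8.45 CPM in inhibitor libraries (-0.42 ± 0.16), without overlap. Il6 had 3.49, 5.73 and 1.70 CPM against 1.48, 2.34 and 2.24 CPM (-0.85 ± 0.36), where control replicate 2 was highest and the groups overlapped.

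Interferon-stimulated genes gave no called gene and no common direction in MAVS-knockout tumours. Of 51 genes that type I interferon induces, 24 had a positive log2 difference, and the median was -0.02. Non-overlapping groups were seen for 0 of them in either direction (4.47% higher and 4.25% lower over all genes). An unadjusted p under 0.05 was found for 0 of 51 (1.71% over all genes), a share so small that 0 says little about these genes. Only 6 of the 51 were held within 1.5-fold and 30 within 2-fold, since the median margin of their intervals was 0.79. The data thus bound 30 of these genes to less than a 2-fold change and leave the other 21 wider.

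Isg15, Ifit1 and Ifit3 are shown with their promoters because each holds the core letters of the element known for the interferon response. The interferon-stimulated response element, ISRE, was searched by its core letters GAAANNGAAA on both strands in the 250 bases before the start (RefSeq, GRCm38.p6, printed 5′ to 3′ on the gene's strand, matches in capitals, positions counted back from the start). Isg15 (chr4:156200819-156201068, minus strand) has overlapping matches at -78, -72 and -66. Ifit1 (chr19:34640639-34640888, plus strand) has them at -104 and -85, and Ifit3 (chr19:34583279-34583528, plus strand) at -156 and -122. The start used for Ifit3 is not the outer end of the annotated gene (chr19:34583119-34588982), so its printed stretch lies inside that gene.
Isg15: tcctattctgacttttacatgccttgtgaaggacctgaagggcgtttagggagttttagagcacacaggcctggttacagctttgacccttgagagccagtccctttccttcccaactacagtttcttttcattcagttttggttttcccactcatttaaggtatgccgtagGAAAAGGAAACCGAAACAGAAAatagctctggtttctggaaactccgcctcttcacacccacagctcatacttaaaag
Ifit1: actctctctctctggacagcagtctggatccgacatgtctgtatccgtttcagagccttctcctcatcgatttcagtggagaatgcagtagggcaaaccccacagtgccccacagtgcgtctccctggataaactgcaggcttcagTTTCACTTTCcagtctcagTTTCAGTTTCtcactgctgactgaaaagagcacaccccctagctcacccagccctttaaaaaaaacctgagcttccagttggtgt
Ifit3: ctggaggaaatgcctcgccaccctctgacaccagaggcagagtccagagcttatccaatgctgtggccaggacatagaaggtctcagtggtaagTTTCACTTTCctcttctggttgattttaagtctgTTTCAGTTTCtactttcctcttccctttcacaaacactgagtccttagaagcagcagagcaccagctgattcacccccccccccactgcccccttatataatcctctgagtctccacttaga
The core lies in 17 of 49 promoters found for 39 genes of the list (34.7%) and in 978 of all 32851 promoters (2.98%).

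Isg15, a ubiquitin-like protein, had 20.1, 6.59 and 9.17 CPM in control libraries and 6.56, 15.1 and 10.8 CPM in inhibitor libraries, a log2 difference of -0.14 ± 0.50 (95% interval -1.23 to 0.95). Control replicate 1 was highest and the other 5 libraries were mixed by treatment. Ifit1, which binds the ends of foreign RNA, had 9.60, 2.53 and 4.03 CPM against 4.41, 6.07 and 3.39 CPM (-0.22 ± 0.48, -1.28 to 0.85). Ifit3, its partner, had 12.8, 3.46 and 7.92 CPM against 7.65, 11.2 and 7.95 CPM (0.15 ± 0.51, -0.98 to 1.28). For all 3 genes control replicate 1 was the highest of the 6 libraries and control replicate 2 or inhibitor replicate 1 the lowest. Ifi27l2a, at 0.57 ± 0.45, and Samd9l, at 0.22 ± 0.20, were among the members with the smallest p, and their groups overlapped. The list ran from -0.65 to 0.57 with 27 of 51 members negative, and the lowest member had the smallest p of all. Eif2ak2, encoding the RNA-activated kinase PKR, had 0.15 ± 0.16 and was held. Ifit genes have near-identical neighbours, so counts may be split between them.

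The list mean per library shows the same spread. Set against the mean of the controls it was 0.66, -0.55 and -0.11 log2 units in controls 1 to 3 and -0.30, 0.40 and 0.07 in inhibitor libraries 1 to 3. The controls thus enclosed all 3 inhibitor libraries. Leaving out single knockout libraries moved the list median between -0.25, without control replicate 2, and 0.35, without control replicate 1. It was also positive, at 0.17, without inhibitor replicate 1, so its sign changed with the library left out. Ifnb1, the gene of interferon beta, had 0 counts in each control library, which allows up to 0.0571 CPM at 3 counts, and 2, 3 and 0 counts under the inhibitor, too few to test.

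The response to interferon gamma was no more separated. Of 30 genes 22 were positive with a median of 0.12, 2 were held, and the median margin was 1.24. Cxcl10, a chemokine for activated T cells, had 81.2, 13.1 and 31.8 CPM in controls and 17.7, 63.2 and 45.5 CPM under the inhibitor (0.0043 ± 0.76, -1.67 to 1.68). Each group covered most of the range of all 6 libraries. Ido1, the tryptophan-degrading enzyme, had -0.53 ± 0.78, or 0.57 without control replicate 1, and the inducible nitric oxide synthase gene Nos2 had -0.40 ± 0.49. Ciita, the master regulator of MHC class II, had 0.20 ± 0.25, and the transcription factor gene Irf8 had -0.004 ± 0.19, the latter held. The median was -0.19 to 0.62 when single knockout libraries were left out.

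Genes of the sensing machinery were mostly held, as were most well-expressed genes. The share held was 55.9% over all genes and 86.1% for those from 10 to 100 CPM. Of 26 genes that sense cytosolic RNA or relay the signal through MAVS, 22 were held and 12 were positive, with a median of -0.01. Ddx58, encoding RIG-I, had 50.3, 34.9 and 41.99 CPM in control and 37.8, 46.7 and 42.1 CPM in inhibitor libraries (-0.01 ± 0.19). It was held. Ifih1, encoding MDA5, had 10.4, 6.64 and 8.71 CPM against 7.90, 11.7 and 10.8 CPM (0.24 ± 0.25, -0.30 to 0.78), with overlap. Trim25, a ubiquitin ligase of the RIG-I route, had -0.13 ± 0.12, and Tank, an adaptor of the kinase TBK1, had 0.14 ± 0.11. In the cGAS and STING list 11 of 17 genes were held, 7 were positive and the median was -0.01. Cgas had 3.64, 3.07 and 3.41 CPM against 2.52, 2.57 and 3.14 CPM (-0.30 ± 0.18), and Tbk1 had 0.09 ± 0.10.

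Genes of NF-kB, the other arm downstream of these sensors, were positive in 12 of 24 members with a median of -0.0027, and 20 were held. Nfkb1 and Nfkb2, which encode 2 of its subunits, had 0.04 ± 0.10 and 0.03 ± 0.08. Nfkbiz, an inducible modulator, had 36.6, 43.1 and 42.5 CPM against 32.2, 37.5 and 28.4 CPM (-0.32 ± 0.12). Its groups overlapped. Chemokines had a median of -0.26, with 6 of 26 positive and 2 held. Ccl8 had 191, 243 and 81.8 CPM in control and 56.3, 142 and 99.6 CPM in inhibitor libraries (-0.79 ± 0.46), and Ccl11, an eosinophil attractant, had 11.4, 26.5 and 5.59 CPM against 5.26, 11.2 and 2.90 CPM (-1.17 ± 0.69). In both, control replicate 2 was highest. Without that library the chemokine median was -0.18, and over all single omissions it ran from -0.60 to -0.06. Ccl5, a T cell attractant, had 5.07, 1.55 and 2.54 CPM against 1.55, 2.70 and 3.51 CPM (-0.24 ± 0.46).

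**Figure D3:**
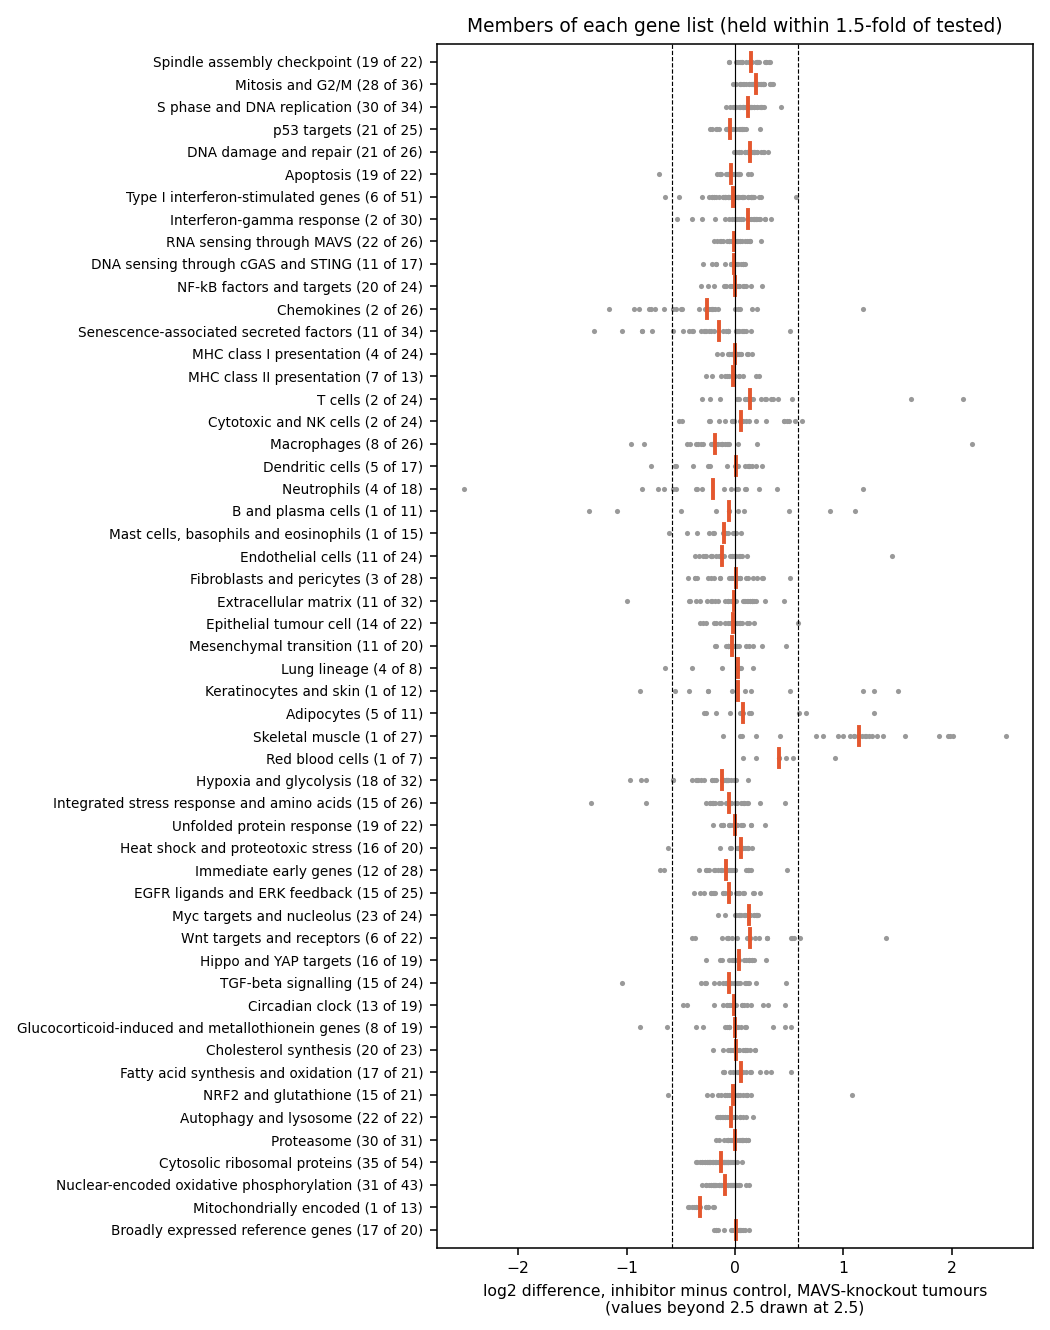
Log2 difference of each tested member (grey points) and the median (red bar) for the 53 gene lists, with dashed lines at a 1.5-fold change and, in brackets, the number of members held of the number tested. Skeletal muscle, with a median of 1.14, is the only list whose median lies beyond the lines.

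Antigen presentation was centred on no change. The 24 genes of the MHC class I pathway had a median of 0.0014 with 12 positive, yet only 4 were held at a median margin of 0.74. The class I heavy chain gene H2-K1 had 959.8, 453 and 490.3 CPM in control and 418, 673 and 734 CPM in inhibitor libraries (-0.06 ± 0.34, -0.80 to 0.68). B2m, the shared light chain, had 1450.1, 674 and 831 CPM against 700.1, 1136 and 1158 CPM (0.02 ± 0.34, -0.72 to 0.75). In both genes control replicate 1 was the highest library. The chaperone genes Calr and Pdia3, of the same list, were held at 0.05 ± 0.09 and 0.04 ± 0.09. The 13 MHC class II genes had a median of -0.02, 6 positive and 7 held, among them Cd74, the invariant chain, at -0.02 ± 0.25 and H2-Ab1 at 0.07 ± 0.22. Genes of the H2 family share sequence, so reads may be split between them.

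Markers of immune cells gave no called gene. T cell markers were positive in 21 of 24 members, with a median of 0.14 and 2 held. Cd8a, the co-receptor of cytotoxic T cells, had 0.324, 0.101 and 0.0746 CPM in controls and 1.08, 0.400 and 0.664 CPM under the inhibitor (2.10 ± 0.77). All 3 inhibitor libraries lay above the controls, at levels near or below 1 CPM. Its partner gene Cd8b1 had 0.248, 0.152 and 0 CPM against 0.830, 0.217 and 0.192 CPM (1.63 ± 0.94), with overlap. The T cell receptor component gene Cd3d had 0.39 ± 0.25, and Tcf7, a factor of naive and memory T cells, had 0.14 ± 0.11. The list median was 0.05 to 0.43 over single omissions.

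Cytotoxic and NK cell genes had a median of 0.05, 13 of 24 positive and 2 held. Granzyme B (Gzmb) had 16.2, 5.04 and 8.76 CPM in control and 6.90, 9.06 and 15.04 CPM in inhibitor libraries (0.05 ± 0.37, -0.77 to 0.87), with complete overlap. Cst7, encoding cystatin F, had 1.33, 1.65 and 1.53 CPM against 0.922, 1.15 and 1.14 CPM (-0.49 ± 0.21), and its inhibitor libraries lay below all controls. The list median changed sign with the library left out (-0.20 to 0.58), as did those of MHC class I (-0.20 to 0.33) and class II genes (-0.14 to 0.18).

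Macrophage markers were mostly below zero. Of 26 genes 3 were positive, the median was -0.19, 8 were held, and 3 had inhibitor libraries below all controls against 1 above (4.25% and 4.47% over all genes). Arg1, encoding arginase, had 298, 525 and 158 CPM in control and 99.2, 262 and 145 CPM in inhibitor libraries (-0.96 ± 0.45). The scavenger receptor gene Cd163 had 91.3, 330.3 and 82.00 CPM against 98.6, 99.6 and 84.1 CPM (-0.84 ± 0.50). Control replicate 2 was highest for both, and without it the Cd163 difference was 0.12. Marco, another scavenger receptor gene, had 0.438, 0.540 and 0.709 CPM against 1.04, 4.94 and 1.69 CPM (2.18 ± 0.56). It was the 1 member with all inhibitor libraries above the controls, and inhibitor replicate 2 stood highest. Spp1 (osteopontin) had -0.12 ± 0.14 and the Fc receptor gene Fcgr3 had -0.16 ± 0.10, both held. Leaving out single libraries gave medians of -0.24 to -0.07.

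Other myeloid lists were wide. Neutrophil markers had a median of -0.20, 7 of 18 positive and 4 held, and the median ran from -0.40 to 0.04 over single omissions. Mmp9, a gelatinase, had 12.7, 74.9 and 44.3 CPM against 39.3, 20.7 and 12.6 CPM (-0.86 ± 0.68), whereas Trem1, an activating receptor, was held at 0.01 ± 0.12. Dendritic cell markers had a median of 0.01 with 10 of 17 positive and 5 held. They ran from -0.77 to 0.25, the highest being Cd86 (0.25 ± 0.17), and Itgax had 0.13 ± 0.15. Inhibitor libraries lay below all controls for 1 member and above them for 0 (4.25% and 4.47% over all genes). B and plasma cell markers were low, with Ms4a1 at 0 to 6 counts per knockout library.

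Markers of the tumour cells themselves gave no called gene. Of 22 epithelial genes 14 were held (55.9% over all genes) and 10 positive, with a median of -0.02. Epcam had 158, 174 and 189 CPM in control and 159.7, 192 and 193 CPM in inhibitor libraries (0.07 ± 0.10). Keratin 8 (Krt8) had 2424, 2318 and 2529 CPM against 2449, 2287 and 2639 CPM (0.02 ± 0.11), and its partner Krt18 had -0.05 ± 0.15. Mesenchymal transition genes were held in 11 of 20 members with a median of -0.03, Vim (vimentin) having 0.02 ± 0.09 and the receptor kinase gene Axl 0.13 ± 0.11.

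Stromal genes varied by library more than by treatment. Fibroblast and pericyte markers had a median of 0.01, 15 of 28 positive and 3 held. Col3a1, a fibrillar collagen gene, had 4029, 6949.5 and 2449.8 CPM in control and 2534, 4968 and 2899 CPM in inhibitor libraries (-0.37 ± 0.44), so that control replicates 2 and 3 enclosed all others, and the difference was 0.10 without control replicate 2. Pdgfrb, a pericyte receptor gene, was held at 0.05 ± 0.19. Matrix genes had a median of -0.01 with 11 of 32 held. Fibronectin (Fn1) was held at -0.02 ± 0.17, and Lox, a collagen cross-linking enzyme, had 179, 394 and 66.5 CPM against 68.4, 171 and 82.2 CPM (-0.99 ± 0.57), control replicate 2 again being highest and the difference -0.19 without it. Of 24 endothelial markers 11 were held, 6 were positive and the median was -0.12, with Pecam1 at -0.27 ± 0.17, Cdh5 at -0.10 ± 0.10 and Flt1 at 0.01 ± 0.11.

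Skeletal muscle markers had the largest median of the 53 lists. It was 1.14, with 26 of 27 genes positive and 3 with the inhibitor libraries above all controls (4.47% over all genes). However, 0 passed the test and the margin was 3.05. Myh4, a fast myosin of muscle fibres, had 2.55, 0.371 and 2.82 CPM in control and 72.3, 29.9 and 17.5 CPM in inhibitor libraries (4.39 ± 2.53). Acta1, skeletal actin, had 127, 3.31 and 45.7 CPM against 206, 39.6 and 122 CPM (1.06 ± 1.53), with overlap. The summed level of the 28 listed genes was 182 to 763 CPM in controls and 416 to 1328 CPM under the inhibitor, 0 of them being at 0 in all knockout libraries. Over single omissions the median ran from 0.56 to 2.25. Red blood cell genes had a median of 0.41 over 7 genes, Hba-a1 having 14.99, 48.2 and 73.7 CPM against 18.7, 77.5 and 93.8 CPM (0.47 ± 0.60). Whether the amount of muscle or blood in a piece bears on other results was not tested.

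**Figure D4:**
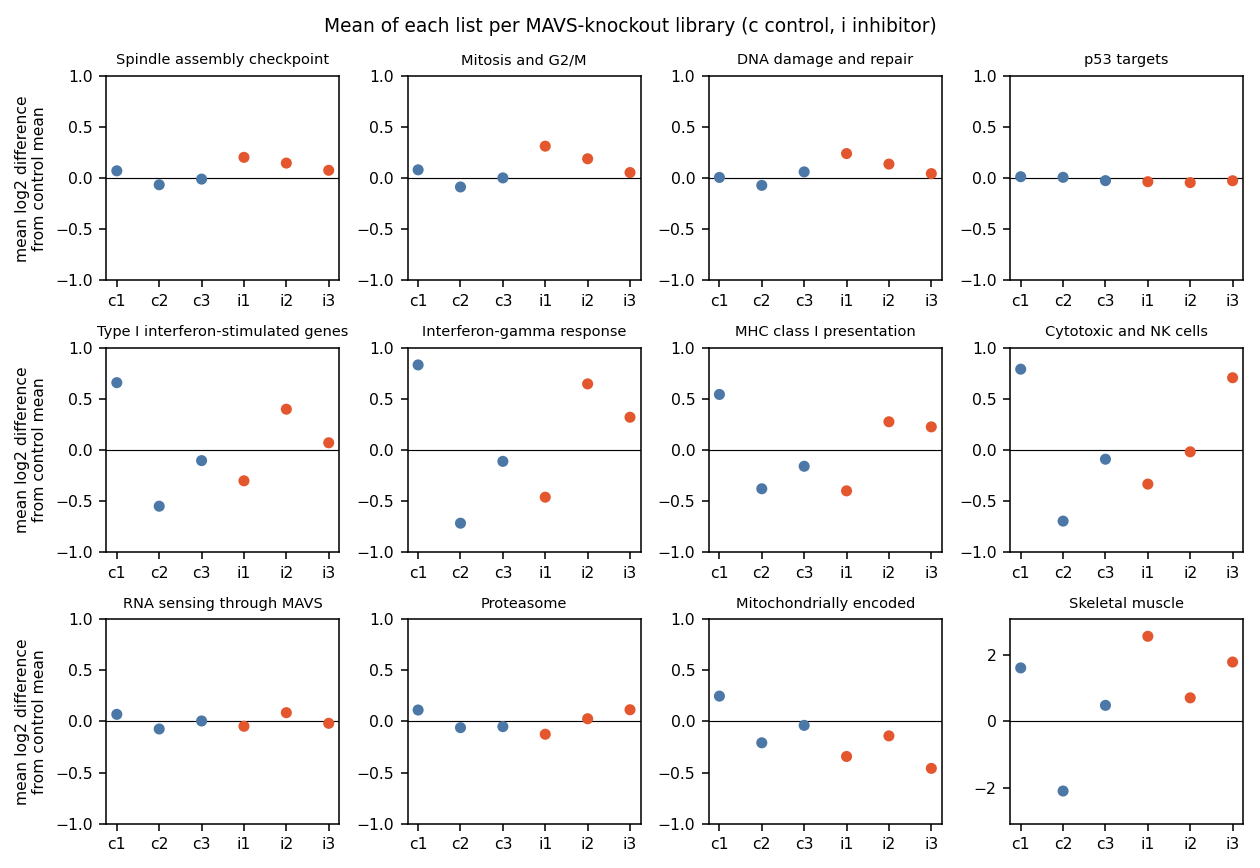
Mean log2 difference of 12 gene lists from the mean of the MAVS-knockout controls, 1 point per library, with controls c1 to c3 in blue and inhibitor libraries i1 to i3 in red (the muscle panel has a wider axis). For the 2 interferon lists, MHC class I and cytotoxic genes the controls spread farther than the inhibitor libraries, and the mitosis list reaches 0.31 in i1.

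Stress and housekeeping programmes were mostly held, as were most well-expressed genes (86.1% from 10 to 100 CPM and 88.3% at 100 CPM or more). All 22 autophagy and lysosome genes were held, with a median of -0.03. Ctsd, the lysosomal protease cathepsin D, had 849, 924 and 870.4 CPM in control and 744, 825 and 876 CPM in inhibitor libraries (-0.11 ± 0.12). Of 31 proteasome genes 30 were held with a median of 0.001, and 5 had the inhibitor libraries above all controls (4.47% over all genes), at differences such as 0.12 ± 0.07 for Psmd1 and 0.10 ± 0.06 for Psmd14. The unfolded protein response was held in 19 of 22 genes (median -0.0027), with Hsp90b1 at 0.002 ± 0.10 and Atf6 at 0.15 ± 0.12. Heat shock genes were held in 16 of 20 (median 0.05), with Hspa8 at 0.05 ± 0.10 and Hsf1 at -0.14 ± 0.11. Cholesterol synthesis was held in 20 of 23 genes, Hmgcs1 having 0.04 ± 0.18. Of 20 broadly expressed reference genes 17 were held, with Gapdh at -0.01 ± 0.12 and Actb at -0.10 ± 0.15.

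Hypoxia and glycolysis genes had 2 of 32 positive with a median of -0.12 and 18 held, a lean that was smaller without control replicate 2. Egln3, an oxygen-sensing hydroxylase, had 11.1, 31.1 and 7.48 CPM in control and 5.92, 12.8 and 8.45 CPM in inhibitor libraries (-0.87 ± 0.46). The glucose transporter gene Slc2a1 had 171, 200.4 and 125 CPM against 125, 149.5 and 133 CPM (-0.29 ± 0.16). Control replicate 2 was highest for both, and without it the list median was -0.02. The glycolytic enzyme gene Pkm was held at 0.01 ± 0.09. Integrated stress response genes were held in 15 of 26 (median -0.06), and Atf4, the factor that drives them, had 209, 211 and 177 CPM against 152, 183 and 182 CPM (-0.21 ± 0.15).

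Ribosomal and respiratory genes had small negative medians that varied with the libraries kept. Of 54 genes of cytosolic ribosomal proteins 2 were positive, the median was -0.13 and 35 were held. Rps29 had 344, 306 and 239.9 CPM in control and 171, 259 and 262 CPM in inhibitor libraries (-0.36 ± 0.26), with inhibitor replicate 1 lowest. Rpl4 was held at -0.03 ± 0.09. Nuclear genes of oxidative phosphorylation were positive in 8 of 43 members with a median of -0.09, and 31 were held. Without inhibitor replicate 1 the ribosomal median was -0.04 and the respiratory median -0.009. The 13 genes of the mitochondrial genome were all negative, with a median of -0.32 and 0 called. Of them 3 had an unadjusted p under 0.05 (1.71% over all genes) and 1 was held (55.9% over all genes). COX2, a subunit of cytochrome c oxidase, had 3955, 3110.2 and 3034 CPM against 2373, 3123 and 2171 CPM (-0.40 ± 0.17). ND4, a subunit of complex I, had 3164, 2259 and 2662 CPM against 2063, 2354 and 1595 CPM (-0.43 ± 0.19). Control replicate 1 was highest for both, inhibitor replicate 2 lay inside the control range, and the list median ran from -0.42 to -0.15 over single omissions. These 13 genes come from 1 molecule that is transcribed as a whole, so they are not independent, and pseudogene copies in the nucleus could take some of their reads.

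Growth factor signalling and immediate early genes gave no called gene. Immediate early genes had a median of -0.08 with 8 of 28 positive and 12 held (55.9% over all genes). Ier3 had 166, 167 and 108 CPM in control and 68.98, 109.7 and 93.3 CPM in inhibitor libraries (-0.69 ± 0.21), control replicate 3 lying just below inhibitor replicate 2. Junb, a subunit of AP-1, had -0.24 ± 0.13. In the ERK feedback list 15 of 25 genes were held (median -0.05). Spry1, an inhibitor of receptor kinase signalling, had 42.1, 36.2 and 45.4 CPM against 34.7, 25.3 and 34.9 CPM (-0.38 ± 0.15), without overlap. Cyclin D1 (Ccnd1) was held at 0.07 ± 0.10.

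Among genes with separate groups and a mean log2 CPM of 1 or more, the smallest p in the upward direction belonged to Pcdhga3 (gene ID 93711, chr18:37674335-37841873 of GRCm38.p6), a gamma protocadherin of cell adhesion. It had 1.68, 1.65 and 2.37 CPM in control and 4.27, 9.31 and 7.42 CPM in inhibitor libraries, a log2 difference of 1.88 ± 0.37, with an edgeR adjusted p of 1. Next came Suv39h2, a histone methyltransferase of heterochromatin, with 19.7, 22.6 and 22.4 CPM against 28.3, 28.4 and 27.2 CPM (0.37 ± 0.09). Its inhibitor libraries lay close together above the controls. The other 10 were Sec14l2 (0.41), Spdl1 (0.33), Meis2 (0.34), the neurotrophin receptor gene Ntrk2 (0.76), Zfp418 (0.58), Pcdhga11 (1.64), Incenp (0.29), Psrc1 (0.45) and the condensin subunit genes Ncapg (0.31) and Ncaph (0.23). Condensin folds chromosomes for mitosis, and Ncapg had 32.4, 30.00 and 31.2 CPM against 40.2, 40.3 and 35.2 CPM. All of these are values that did not pass.

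In the downward direction the 12 genes were Mafg (-0.28), Lcor (-0.25), Bhlhe40 (-0.44), Mir100hg (-0.81), Mir22hg (-0.56), Rfx1 (-0.24), Dusp2 (-0.65), Tmem81 (-0.41), Mgl2 (-0.47), Epdr1 (-0.35), Clcf1 (-0.25) and Zfp692 (-0.36). Mafg, a small partner of the stress factor NRF2, had 123, 129.95 and 125 CPM in control and 109, 105 and 96.01 CPM in inhibitor libraries (-0.28 ± 0.07). Bhlhe40, a repressor linked to the clock and to hypoxia, had 318, 369 and 254 CPM against 221, 244 and 228 CPM (-0.44 ± 0.14). Mgl2, a lectin of macrophages and dendritic cells, had 98.9, 120.1 and 94.6 CPM against 58.5, 80.8 and 86.8 CPM (-0.47 ± 0.16). In each of these the groups were separate, and none passed.

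The gamma protocadherins as a family went both ways. They were looked at because Pcdhga3 and Pcdhga11 stood among the smallest p, that is, after their values were seen. Of 22 genes 11 were positive and 11 negative, 9 had an unadjusted p under 0.05 (1.71% over all genes), 4 had inhibitor libraries above all controls (4.47%) and 2 below (4.25%). Pcdhga7 had 0.952, 0.759 and 2.13 CPM in control and 7.94, 6.81 and 5.45 CPM in inhibitor libraries (2.40 ± 0.61). Pcdhga10 had 33.04, 38.8 and 33.7 CPM against 30.5, 26.6 and 19.5 CPM (-0.46 ± 0.17), in the opposite direction. Pcdhgc3 had -0.10 ± 0.19. The genes share their last exons, so reads can be assigned to more than 1 of them and their separate values are uncertain.

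The genes called by other tools were few and low. DESeq2 called Pcdhga3 and Mylk4 higher and Gm7030 lower, and limma-voom called Gm7030 alone. They are named here after their values were seen. Gm7030, a predicted gene on chromosome 17 (36127609 to 36129425 of GRCm38.p6), had 99, 65 and 56 counts in the knockout controls and 0 counts in each of the 9 other libraries, the reconstituted controls included. Against a floor of 3 counts per library it was at least 25.6-fold lower under the inhibitor. Mylk4, a myosin light chain kinase gene, had 0, 0 and 0 CPM in controls and 2.67, 1.37 and 0.489 CPM under the inhibitor, where inhibitor replicate 3 was lowest.

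The effect in knockout tumours was set beside that in reconstituted tumours, whose 6 libraries are different ones. In reconstituted tumours 0 of 17885 genes were called too (0%, edgeR, smallest adjusted p = 0.0729), but 5827 had an unadjusted p under 0.05, and 6840 (38.2%) were held within 1.5-fold at about the same median margin (0.39). The difference of the effects, tested as an interaction, had 0 called genes (0%, smallest adjusted p = 0.144 with edgeR) and 4421 genes (24.7%) at an unadjusted p under 0.05. DESeq2 called 890 genes, and edgeR called 4005 without reconstituted inhibitor replicate 3 and 1 without reconstituted control replicate 3. The count of called genes thus differed with the tool and with the reconstituted library left out.

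Type I interferon-stimulated genes had a median of -0.02 in knockout and 0.65 in reconstituted tumours, where 49 of 51 were positive, and 3 of 51 had an unadjusted interaction p under 0.05 (24.7% over all genes). For the interferon-gamma response the medians were 0.12 and 1.43, and 7 of 30 reached that p. For MHC class I they were 0.0014 and 0.97, with 9 of 24. The first share lies below that of all genes, the second close to it and the third above it. Against the knockout control mean, the type I list stood at 1.55, 1.15 and 2.175 in reconstituted controls 1 to 3. Under the inhibitor it stood at 2.73, 2.02 and 2.29, with overlap. The interferon-gamma list overlapped too, with control 3 at 1.66 and inhibitor 2 at 1.28. For MHC class I the highest control was 0.87 and the lowest inhibitor library 0.88. Reconstituted inhibitor replicate 1 was highest in each. Ribosomal proteins had medians of -0.13 and 0.57 with 48 of 54 genes at that p, and nuclear genes of oxidative phosphorylation -0.09 and 0.55 with 32 of 43. Mitosis genes had 0.19 and -0.22 with 19 of 36. No member of these lists was called in edgeR's interaction test on all 12 libraries, but other settings made calls. Without reconstituted inhibitor replicate 3 the same test called 51 of 54 ribosomal genes, 33 of 43 of oxidative phosphorylation, 15 of 36 of mitosis, 1 of 51 interferon-stimulated genes and 0 of the other 2 lists (21.9% over all genes). DESeq2 on all 12 libraries called 23, 11, 3, 1 and 0 of them (4.98% over all genes). The calls in these lists thus differed with the tool and with that 1 reconstituted library.

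Of single genes, the smallest interaction p values belonged to Ntrk2, Pcdhga3, Rtn1, Ier3 and Suv39h2, each with an edgeR adjusted p of 0.144. Ntrk2 had a log2 difference of 0.76 in knockout and -1.46 in reconstituted tumours. Pcdhga3 had 1.88 and -1.40. Ier3 had -0.69 and 0.89. Each of these had opposite signs in the 2 genotypes, which a choice by interaction p favours, and none passed the test. The genotypes were injected as separate cell populations, and whatever else distinguishes these populations cannot be told apart from MAVS.

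**Figure D5:**
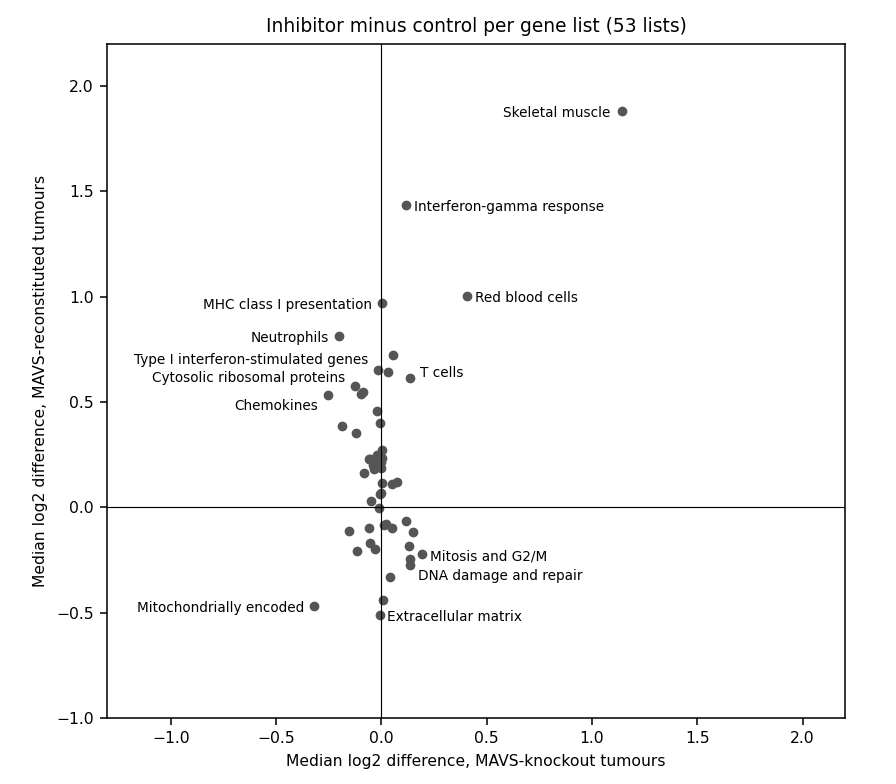
Median log2 difference between inhibitor and control per gene list in MAVS-reconstituted tumours (vertical axis) against MAVS-knockout tumours (horizontal axis), 1 point per list, on equal scales. The points form a column near 0 on the horizontal axis, while the interferon-gamma list reaches 1.43 on the vertical axis, and the muscle list lies at 1.14 and 1.88.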

How the data were processed

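RNA was measured in 12 libraries from subcutaneous 393P tumours, in 4 groups of 3 libraries. Per the labels' protocols, libraries were stranded and made from polyadenylated RNA after column extraction with a DNase step. The submitters' processing notes list Trimmomatic, HISAT2, StringTie and GRCm38 (mm10) without versions or roles. The authors deposited 1 table of raw counts, whole numbers for 45777 gene IDs in each library, not normalized as far as the values show. No source used here says whether counting used strand or how it treated reads shared between genes. At least 1 count was found for 27547 genes, and 45679 IDs matched the RefSeq annotation of GRCm38.p6, from which promoters came too (32851 promoters of 27025 genes).

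A single model with 4 group means was fitted to all 12 libraries in edgeR 4.0.16 (R 4.3.3), with TMM factors and filterByExpr, which kept 17885 genes. The knockout contrast was tested with the quasi-likelihood F-test and Benjamini-Hochberg adjustment over all genes. SE is the size of the log2 difference over the square root of F, and intervals are at 95%. CPM values were scaled with the TMM factors, and list means per library used log2 CPM with a prior count of 2. The fit was also run on simulated data with genes drawn independently, which does not cover the variation that genes share between libraries. No pair of libraries within a knockout group agreed within sampling noise (smallest chi-square per gene 33.9).

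The 53 gene lists were described by counts and medians, with no set test. The text names 25 fixed genes, the 12 genes with the smallest p per direction (mean log2 CPM of at least 1, separate groups, no predicted genes), members of lists (the 4 smallest p and the 2 held genes with the highest CPM) and the 5 smallest interaction p. Other names are marked where they occur or are markers of the studied cells. A few named genes are not reported here. Members and lists were chosen with earlier results of these data known. Alternatives were other size factors and filters, limma-voom (limma 3.58.1), DESeq2 1.42.0, the 6 knockout libraries alone, a replicate block, leaving out each library, and 2 chosen after seeing the data.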

Additional observations from a re-analysis of the deposited data

How the results depend on the processing

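The count of genes called in knockout tumours was 0 with RLE size factors, both other filters, the 6 knockout libraries alone and each single library left out. It was 1 with limma-voom and 3 with DESeq2. It was also 1 with 5 knockout libraries, a setting chosen after seeing the data that left out knockout control replicate 2. The gene was Htd2, at 0 CPM in both remaining controls. Genes held within 1.5-fold numbered 8627 to 10543 over single omissions and 9842 to 11813 over the other edgeR fits on all libraries, the highest without a filter. In that fit the median log2 difference was 0, and genes at exactly 0 count as held, so its number may be inflated. Correlations of deviations between knockout control and inhibitor libraries of the same replicate number were -0.113, 0.247 and 0.0658. Those of unlike numbers ran from -0.241 to 0.175. So few values cannot show whether the replicate numbers pair the samples. With the replicate block 0 genes were called and 9842 were held. For the difference between genotypes the count was 890 with DESeq2 and 0 to 4005 over single omissions. Of the named genes, Cd163 had 0.12 without knockout control replicate 2 and with the 5 libraries, and -1.16 at the other end of the single omissions, and the cause was not tested. Of 1134 list medians under alternatives, 13 moved by more than the SD between libraries, among them those of p53 targets, which stayed between -0.05 and -0.0055. The lowest expressed genes are limited by depth: 0.102% of those under 1 CPM were held.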

Other observations

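Programmes outside the main lists held a few values of their own. Glucocorticoid-induced and metallothionein genes had a median of 0.00078 with 10 of 19 positive and 8 held. Tsc22d3, which encodes the glucocorticoid-induced leucine zipper, had 158, 177 and 219 CPM in knockout controls and 223, 231 and 253 CPM under the inhibitor (0.35 ± 0.14). Per1, a clock gene that glucocorticoids also induce, had 40.3, 44.4 and 63.7 CPM against 67.8, 69.9 and 66.7 CPM (0.46 ± 0.16). In both genes the inhibitor libraries lay above all controls, and neither passed edgeR's test (adjusted p = 1). Sgk1 and Errfi1, which glucocorticoids also induce, were held at 0.01 ± 0.11 and -0.10 ± 0.12, and the clock genes Nr1d1 and Nr1d2 were held at -0.08 ± 0.16 and -0.03 ± 0.08.

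Wnt targets and receptors had a median of 0.14, with 15 of 22 positive and 6 held. Fzd4, a Wnt receptor gene, had 3.12, 2.78 and 3.21 CPM in knockout controls and 5.46, 4.20 and 3.41 CPM under the inhibitor (0.52 ± 0.24), without overlap, against -1.27 in reconstituted tumours. Beta-catenin (Ctnnb1) was held at -0.03 ± 0.08. Targets of YAP were held in 16 of 19 members, Ankrd1 having -0.02 ± 0.19. Tgfb2, a TGF-beta ligand, had 7.35, 5.28 and 5.54 CPM against 7.79, 8.78 and 8.59 CPM (0.47 ± 0.23), and its inhibitor libraries lay above all controls.

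The 13 genes whose interval lay wholly beyond a 1.5-fold rise were all looked at after their values were seen. Besides Marco, Pcdhga3, Pcdhga7, Pcdhgc4 and Mylk4 they included Clcn1, the chloride channel gene of muscle, at 2.19 ± 0.68. Intervals are per gene and not adjusted for the number of genes.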
